A study of Mus musculus with 12 samples.

Results

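The comparison described here sets unstimulated brown adipocytes that express a truncated, soluble Semaphorin 4B (tSema4B) against unstimulated brown adipocytes that carry the empty vector. It used 6 of the 12 libraries of the study, 3 for each line. Its members are the 11998 of 48321 listed genes with a normalized read count of at least 10 in at least 3 of the 12 libraries, and the difference between the lines played no part in the choice. The third highest value was 10.1 normalized counts for the gene just inside this limit and 9.82 for the gene just outside it.

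Both lines descend from wild type C57BL/6J brown preadipocytes immortalized with the SV40 large T antigen. They were transduced with a pLEX lentivirus, empty for the vector line or coding for Flag-tagged mouse tSema4B, which stands in for the form that the protease ADAM17 releases from the cell surface, and puromycin was used to select a stable line of each. All cells, vector cells included, were differentiated for 8 days, with IBMX, rosiglitazone, dexamethasone, insulin and triiodothyronine (T3) given on days 0 and 2 and insulin and T3 alone on days 4 and 6, and then spent 6 h in serum-free medium with BSA and 0 µM norepinephrine (NE). The 6 other libraries are the same lines with 2 µM NE over those 6 h. The labels place the source of the cells in the interscapular brown fat of mice, the methods in 1 newborn mouse. Each construct had 1 line, and by the labels its 3 libraries are technical replicates. Every p-value given here therefore measures the spread between those libraries, and tSema4B and the particular line that carries it cannot be told apart.

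Preadipocytes are fibroblast-like cells that build and remodel collagen-rich matrix. During adipogenesis C/EBP family factors switch on PPARγ and C/EBPα, which sustain each other and turn on the genes of fatty acid uptake, triglyceride storage, lipolysis and hormone secretion. Brown adipocytes add EBF2-dependent genes, dense mitochondria and UCP1, which releases the proton gradient as heat when norepinephrine acts through β-adrenergic receptors. Class 4 semaphorins such as Sema4B are transmembrane ligands of plexins that can be shed from the cell.

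The unstimulated libraries held 2841941 to 3682634 reads on genes in the vector line and 2000780 to 2541747 in the tSema4B line, so that 1 read was worth 0.841 to 1.09 and 1.19 to 1.55 normalized counts respectively. Sema4b itself (ENSMUSG00000030539.13, chr7:80186841-80226527, GRCm38) stood at 124008, 110786 and 115596 normalized counts in the vector libraries and at 258257, 316850.0 and 269434 in the tSema4B libraries, a 2.41-fold rise (log2 fold change 1.27, SE 0.088, adjusted p = 9.45e-10 by limma). The tSema4B libraries were all above the vector libraries, which themselves gave 3.58 to 4.02% of their reads to Sema4b, against 8.53 to 10.2% with tSema4B. A count per gene does not separate reads of the construct from those of the cell's own Sema4b. Reads on mitochondrially encoded genes, the ribosomal RNAs mt-Rnr1 and mt-Rnr2 included, took 13.4 to 15.8% of the vector and 7.02 to 7.89% of the tSema4B libraries. The part of these shares in the results was not tested beyond rescaling to the nuclear genes, which left the same genes called.

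The lines also differed in sex-linked RNAs. Xist, the RNA that coats an inactive X chromosome, was at 801, 952 and 921 normalized counts in the vector and 126, 153 and 185 in the tSema4B libraries (adjusted p = 2.40e-10, log2 fold change -2.53). It shares 1980 exon bases with Tsix, the antisense gene. The Y-linked helicase gene Ddx3y went from 188, 216 and 223 to 356, 394 and 314 (log2 fold change 0.76), and Eif2s3y and Uty stood at 0.80 and 0.61. The fourth Y-linked gene tested, the demethylase gene Kdm5d, had a log2 fold change of 1.13 and lost its call without vector library 1 or tSema4B library 2 (log2 fold change 0.84 to 0.85, adjusted p 0.0921 to 0.0991). The 2 groups did not overlap in any of the 5 genes, while the 410 tested genes of chromosome X had a median log2 fold change of 0.02. Whether the lines hold different mixtures of cells was not tested, and it cannot be told apart from the construct.

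**Figure D1:**
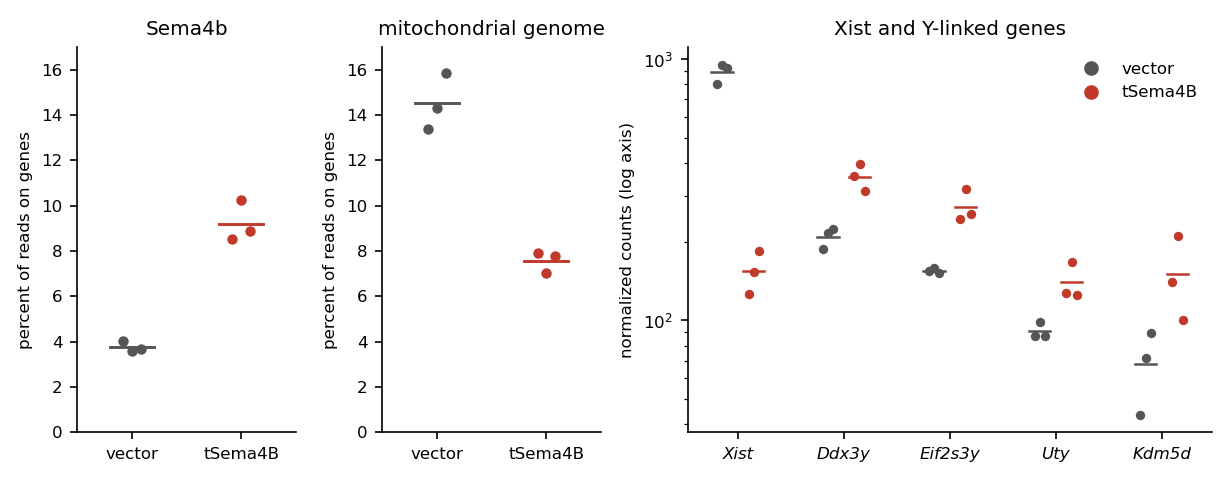
Shares of reads and sex-linked RNAs in each unstimulated library. The left and middle axes give the percent of a library's reads on Sema4b and on mitochondrially encoded genes, the right axis normalized counts of Xist and 4 Y-linked genes on a log scale, with points for the 3 libraries of each line and bars for their means. Sema4b takes 8.53 to 10.2% of the reads with tSema4B against 3.58 to 4.02% with vector, and Xist lies lower in each tSema4B library.

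The question of the comparison is what tSema4B does to adipocyte gene expression without a thermogenic stimulus. A gene was called where limma's Benjamini-Hochberg adjusted p was 0.05 or less and the log2 fold change, on the log2(normalized count + 1) scale, was at least 1 in size. With tSema4B 133 genes rose (1.11% of those tested) and 325 fell (2.71%). These shares over all genes are the ones to set beside the called members of each list below. By adjusted p alone 677 genes were higher (5.64%) and 887 lower (7.39%), and the 3 libraries of each line did not overlap in 1705 higher (14.2%) and 1817 lower genes (15.1%). Over all tested genes the median log2 fold change was -0.0025, with the middle 50% between -0.29 and 0.28.

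The fall was steeper than the rise. Among the called genes 132 of the 325 lower ones but 17 of the 133 higher ones moved by 2 or more on the log2 scale, and the median log2 fold change was -1.75 for the former and 1.29 for the latter. In 8 lower genes no read was found in the tSema4B libraries, so that only a bound on the fold can be given there, set at 3 reads in the shallowest tSema4B library, and 33 more had reads but at most 3 in each. No higher gene was without reads in the vector line. Of the called genes with an annotation, 294 of 317 lower and 122 of 131 higher genes were protein coding. Calls were found at each level of expression, and of the 57 genes above 3000 normalized counts 5 rose and 9 fell.

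**Figure D2:**
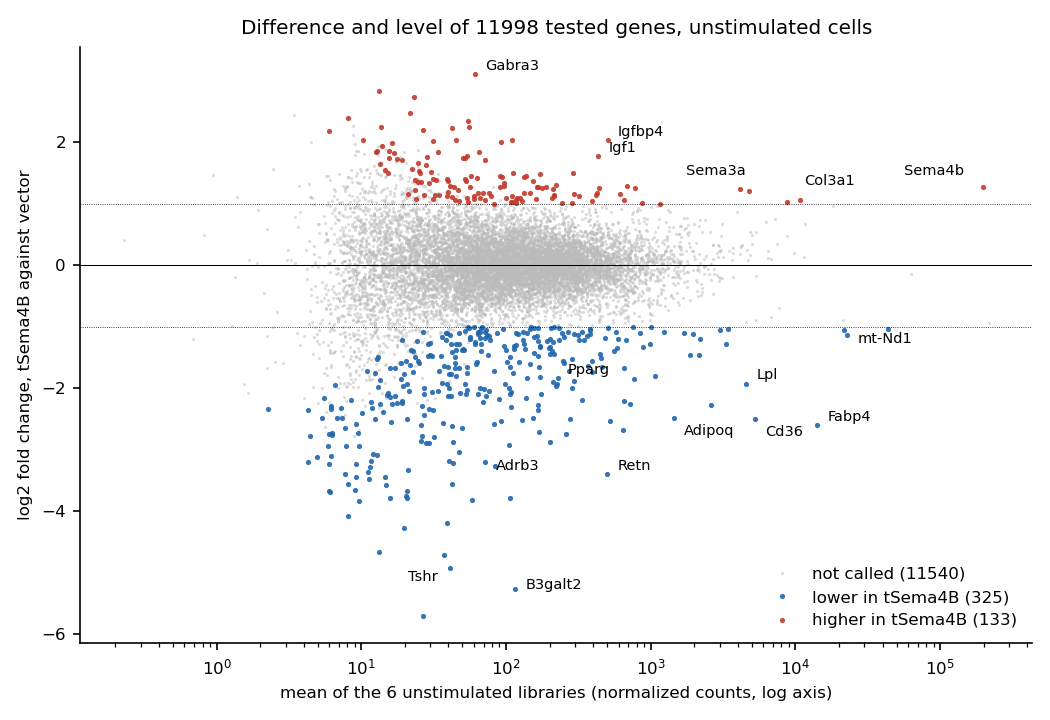
Mean normalized count over the 6 unstimulated libraries (log axis) against the log2 fold change of tSema4B over vector for the 11998 tested genes, with called genes coloured. Beyond 2 in size lie 132 of the 325 lower and 17 of the 133 higher genes.

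The identity of the cells was checked on markers. All 11 general adipocyte markers fell, with a median log2 fold change of -2.49 and a summed level of 34435 to 38347 normalized counts in the vector libraries against 5587 to 8149 with tSema4B. They were far from absent, since adiponectin (Adipoq) still gave 430.3, 404 and 474 normalized counts in the tSema4B libraries. Of the 8 brown adipocyte markers tested 5 fell, with sums of 272 to 340 against 79.9 to 105 for the list. The other 3 did not pass the adjusted p, and 2 of them had a positive log2 fold change. Ppargc1a had 21, 16 and 24 reads with vector and 8, 30 and 31 with tSema4B, and Lhx8 30, 27 and 12 against 20, 23 and 17. Prdm16 had 29, 14 and 37 against 10, 5 and 9. Dio2, Cox8b and Zic1 were not tested, with at most 0, 3 and 1 reads in a library. Fibroblast markers moved the other way, with 3 of 9 called higher (Col1a1, Col3a1 and Dcn) and sums of 16741 to 17331 against 31404 to 35569. Dcn, decorin, at 1.003 lost its call without vector library 2 or tSema4B library 2 (log2 fold change 0.92 to 0.95, adjusted p 5.16e-06 to 8.36e-06) and at a pseudocount of 10 and with edgeR. In such bulk RNA, fewer adipocytes and less adipocyte RNA per cell cannot be told apart. Of the markers of other cell types, 7 of 12 for macrophages and leukocytes (Ptprc and Adgre1 among them), 7 of 11 for endothelium (Cdh5, Kdr), 9 of 13 for skeletal muscle (Myod1, Myog), 3 of 9 for Schwann cells and neurons (Sox10 among them) and 2 of 7 for pericytes had 0 reads in all 6 libraries. The summed normalized counts of these lists with vector and with tSema4B were 13.1 to 21.7 and 17.8 to 29.4 for macrophages and leukocytes, of which Cd14 had up to 19 reads in a library, and 19.5 to 28.3 and 27.4 to 37.0 for endothelium, with Egfl7 up to 16 reads. They were 35.8 to 47.9 and 20.3 to 40.2 for skeletal muscle, and 174 to 248 and 206 to 248 for pericytes, where Notch3 and Mcam gave up to 101 and 121 reads. The Schwann cell and neuron list went from 45.4 to 65.2 with vector to 79.9 to 109.5 with tSema4B, and its member Tubb3, a tubulin, rose (log2 fold change 1.395, adjusted p = 0.00159). The other member tested, the myelin gene Mbp, had 18, 7 and 6 reads with vector and 0, 1 and 2 with tSema4B (adjusted p = 0.0984). The part of these RNAs in the results was not tested.

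Several regulators of adipogenesis fell. Of 29 transcription factors tested 6 were called lower and 0 higher, where 2.71% and 1.11% of all genes were, with a list median of -0.26. Pparg (chr6:115360951-115490399), the nuclear receptor that drives fat cell differentiation, gave 351, 409 and 307 normalized counts in the vector libraries and 104, 80.4 and 114 in the tSema4B libraries (356 ± 51.3 against 99.3 ± 17.04, mean ± SD, n = 3 libraries of each line, log2 fold change -1.84, limma adjusted p = 2.75e-07). Cebpa (chr7:35119293-35121928), its partner C/EBPα, fell from 267, 208 and 183 to 44.1, 41.8 and 27.4 (log2 fold change -2.52, SE 0.24, adjusted p = 1.10e-07). Ebf2, the factor that sets brown identity, went from 77.1, 84.1 and 66.4 to 14.3, 4.64 and 12.3 (7.28-fold lower, adjusted p = 6.56e-05). The lines did not overlap in any of these 3 genes.

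Other factors of the list were closer to the thresholds or not called. Nr1h3, the oxysterol receptor LXRα, had a log2 fold change of -1.77 and lost its call without vector library 1 or tSema4B library 2 (log2 fold change -1.54 to -1.24, adjusted p 0.0564 to 0.0587). Klf15 and Rxra, the dimerization partner of PPARγ, fell, with log2 fold changes of -1.75 and -1.10. The most abundant member, the inhibitor Id2, was at -0.26 (adjusted p = 0.214), and Cebpd, an early inducer of the programme, at 0.76, past the adjusted p but under the fold threshold. Of the 29 factors 19 did not pass the adjusted p.

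The promoters of 4 genes on which the results turn are shown as a view of the sequence around their start sites, 250 bases before to 50 after, 5′ to 3′ in the sense of the gene, from RefSeq on GRCm38.p6. Capitals mark the letters TTGCNNAA, a C/EBP-type motif, or TATAAA, both searched on both strands. The windows are Pparg at chr6:115421816-115422115 on the plus strand (1 of its 3 windows), Cebpa at chr7:35119043-35119342 (plus), Plin1 at chr7:79732727-79733026 (minus) and Igfbp4 at chr11:99040994-99041293 (plus). The Pparg window was chosen from the 3 for its number of C/EBP-type matches, so it does not stand for the others.
Pparg promoter: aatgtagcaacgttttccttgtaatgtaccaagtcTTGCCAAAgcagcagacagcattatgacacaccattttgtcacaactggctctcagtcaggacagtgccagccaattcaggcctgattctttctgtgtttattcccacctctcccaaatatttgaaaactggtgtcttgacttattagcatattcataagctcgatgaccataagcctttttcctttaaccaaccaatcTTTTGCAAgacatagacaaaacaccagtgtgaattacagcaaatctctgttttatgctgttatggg
Cebpa promoter: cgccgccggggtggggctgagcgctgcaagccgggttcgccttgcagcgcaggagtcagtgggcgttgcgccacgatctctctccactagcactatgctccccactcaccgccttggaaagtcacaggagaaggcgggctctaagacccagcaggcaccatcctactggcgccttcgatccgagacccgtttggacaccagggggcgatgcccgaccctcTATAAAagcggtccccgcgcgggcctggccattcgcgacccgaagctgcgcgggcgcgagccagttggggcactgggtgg
Plin1 promoter: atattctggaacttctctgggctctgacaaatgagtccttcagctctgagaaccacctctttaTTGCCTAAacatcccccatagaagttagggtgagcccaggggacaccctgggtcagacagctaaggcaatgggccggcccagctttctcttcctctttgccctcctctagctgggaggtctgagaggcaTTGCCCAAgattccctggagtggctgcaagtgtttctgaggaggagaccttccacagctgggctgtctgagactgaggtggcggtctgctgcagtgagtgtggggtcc
Igfbp4 promoter: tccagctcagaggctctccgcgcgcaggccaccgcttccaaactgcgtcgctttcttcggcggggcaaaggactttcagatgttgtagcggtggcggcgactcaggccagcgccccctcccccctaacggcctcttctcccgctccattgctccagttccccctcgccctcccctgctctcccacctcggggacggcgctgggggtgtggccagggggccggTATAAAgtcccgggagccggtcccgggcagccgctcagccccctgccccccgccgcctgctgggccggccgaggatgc
The C/EBP-type letters start at -215 and -16 in the Pparg window and at -187 and -58 in the Plin1 window. TATAAA starts at -30 before Cebpa and at -28 before Igfbp4. The C/EBP-type letters were found in 10.8% of all 32851 windows of 27025 genes, in 12.0% of the 275 windows of 213 lower genes and in 14.9% of the 121 windows of 94 higher genes, the called genes that RefSeq's table held. TATAAA was in 13.6%, 12.7% and 14.0% of them. These are matches of letters, with no measurement of binding.

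Several genes that bring fatty acids into the cell fell. Of 19 uptake and trafficking genes 7 fell and 0 rose, where 2.71% and 1.11% of all genes did (median -0.19). Cd36, the fatty acid translocase, went from 8857, 10434 and 7537 normalized counts in the vector to 1537, 1473 and 1683 in the tSema4B libraries, 5.72-fold lower. Fabp4, the cytosolic carrier that was the most abundant member, and lipoprotein lipase (Lpl) had log2 fold changes of -2.59 and -1.92. Angptl4, which inhibits lipoprotein lipase, also fell (log2 fold change -1.85, adjusted p = 9.45e-10). Vldlr and Lrp1, receptors for lipoprotein particles, were at 0.42 and 0.47, higher by adjusted p but under the fold threshold.

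Several genes of triglyceride synthesis fell. Of 17 genes of glycerol handling and esterification 8 were called lower and 0 higher, where 2.71% and 1.11% of all genes were (median -0.91). Aqp7, the glycerol channel, stood at 66.2, 71.5 and 50.1 normalized counts with vector and 16.7, 12.4 and 4.11 with tSema4B (5.66-fold lower, adjusted p = 0.00375). Gpd1, which makes glycerol 3-phosphate, fell by 2.35 on the log2 scale and shares 384 exon bases with Gm16537. Dgat1 and Dgat2, which add the last acyl chain, fell, with log2 fold changes of -1.49 and -1.11. Pck1, the glyceroneogenic kinase, was at 6.52, 12.6 and 6.53 normalized counts with vector and had no read with tSema4B, at least 1.84-fold lower. Its call was lost without vector library 2 (log2 fold change -2.91, adjusted p 0.0832) and at a pseudocount of 10 and after thinning. The most abundant member, the acyltransferase Gpat4, had a log2 fold change of -0.025 (adjusted p = 0.941).

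Proteins that coat lipid droplets carried the lowest median of the lipid groups, -1.62, with 8 of 16 members called lower and 0 higher. Plin1, the gatekeeper of the droplet surface whose promoter is printed above, went from 494, 520.5 and 396 normalized counts with vector to 78.7, 57.2 and 123 with tSema4B. Cidec (chr6:113424634-113435760), which fuses droplets into larger ones, fell from 492, 503 and 349 to 89.4, 41.8 and 73.9 (6.55-fold, SE of the log2 fold change 0.21, adjusted p = 4.14e-09). Neither gene had overlapping libraries. Among rarer members, Clstn3, Plin5 and Cidea had log2 fold changes of -3.56, -3.44 and -2.88, and Hsd17b13, a liver and fat droplet enzyme, had no read with tSema4B, at least 3.48-fold lower. Plin2, the coat protein found on droplets of most cell types and the most abundant member, was at -0.49 (adjusted p = 6.14e-05), lower but under the fold threshold.

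Several genes for the breakdown of stored fat also fell. Of 11 lipolysis genes 6 fell and 0 rose, where 2.71% and 1.11% of all genes did (median -1.09). Lipa, the lysosomal acid lipase, was at 0.41, higher by adjusted p but under the fold threshold. The call of Pnpla3, a relative of Pnpla2, was lost without vector library 1, 2 or 3 or tSema4B library 1 or 2 (log2 fold change -2.27 to -1.41, adjusted p 0.0565 to 0.182), with no filter, with edgeR and with DESeq2. Pnpla2, which codes for adipose triglyceride lipase, had 1713, 1882 and 1424 normalized counts with vector and 538, 461 and 434 with tSema4B. Mgll, the monoglyceride lipase, had a log2 fold change of -2.30, and hormone sensitive lipase (Lipe) had -1.09, close to the fold threshold, and lost its call without vector library 2 (log2 fold change -0.96, adjusted p 8.97e-04). G0s2, an inhibitor of the Pnpla2 product, fell by 2.26. The list therefore held lower enzymes and a lower inhibitor.

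The receptor that starts lipolysis and thermogenesis was among the 12 genes that fell most at a mean of 50 or more normalized counts without overlap of the lines. Adrb3 (chr8:27225776-27250616), the β3-adrenergic receptor of adipocytes, was at 122, 122 and 144 normalized counts in the vector and 25.03, 9.28 and 9.58 in the tSema4B libraries (129 ± 12.7 against 14.6 ± 9.01, n = 3 libraries of each line), 8.82-fold lower (adjusted p = 1.19e-06). It shares 839 exon bases with Gm45470. Akap1, which anchors protein kinase A to mitochondria, fell by 1.27. Both were among the 3 genes called lower of 23 tested in the adrenergic and cAMP list, whose median was 0.04, and the most abundant member, the kinase subunit Prkar1a, was at 0.19 (adjusted p = 0.132).

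Ucp1 and several other brown fat genes were at low levels in both lines. Of 35 thermogenesis genes listed 20 passed the filter, of which 10 fell and 0 rose (median -1.33). Ucp1 was at 15.2, 9.25 and 11.98 normalized counts with vector, 14, 11 and 11 reads, and had no read with tSema4B, at least 2.62-fold lower. Cox7a1, the heart and brown fat form of a cytochrome oxidase subunit, went from 39.1, 32.8 and 43.6 to 3.58, 0 and 5.48 (12.8-fold lower, adjusted p = 9.07e-04). Elovl3, which lengthens fatty acids in recruited brown fat, fell by 2.86 on the log2 scale. Kcnk3, a potassium channel of brown fat, fell from 17.4, 16.0 and 19.6 to 3.58, 1.55 and 2.74. Adrb3, Cidea and Ebf2, given above, also belong to this list. Its most abundant member, the kinase gene Pdk4, was at 1180.4, 1408 and 1213 against 510.1, 476 and 523.

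**Figure D3:**
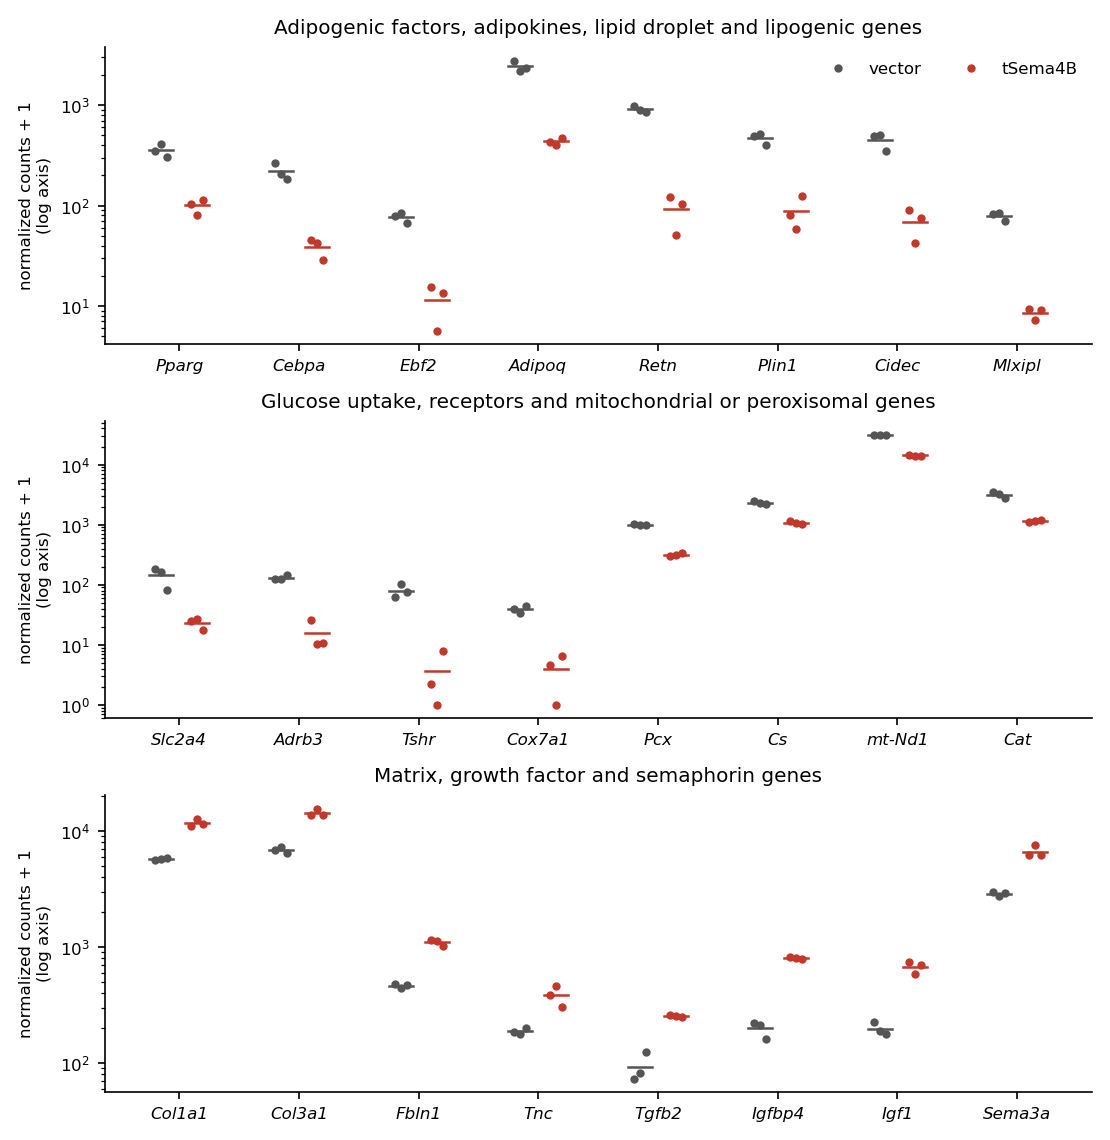
Normalized counts + 1 (log axis) of 24 genes in the 6 unstimulated libraries. Points are libraries, 3 of each line, and bars their means. The lipid, receptor and mitochondrial genes lie lower with tSema4B, the matrix, growth factor and semaphorin genes higher.

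Some regulators and enzymes of fatty acid synthesis fell. Of 24 lipogenesis genes 5 fell and 0 rose, where 2.71% and 1.11% of all genes did. By adjusted p 10 were lower and 1 higher (median -0.55). Mlxipl, which codes for the glucose-sensing factor ChREBP, went from 81.4, 84.1 and 68.6 to 8.34, 6.19 and 8.21 normalized counts, 10.3-fold lower (adjusted p = 4.08e-07). Thrsp, a lipogenic gene of liver and fat, had a log2 fold change of -2.02. Scd1, the desaturase that was the most abundant member, had 5599, 4162 and 4283 normalized counts with vector against 2186, 1811 and 1767 with tSema4B. Fasn, fatty acid synthase, was at -0.41 and Srebf1 at -0.61, both past the adjusted p and under the fold threshold.

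Genes of fatty acid oxidation were lower in part in both organelles. None of the 23 mitochondrial genes was called by limma, edgeR or DESeq2, while 12 were lower and 0 higher by adjusted p (14 and 0 at an unadjusted p under 0.05, where 13.9% of all genes were lower and 12.3% higher, median -0.43). Acadl, the long-chain acyl-CoA dehydrogenase and most abundant member, was at -0.57 (SE 0.093). Of 20 peroxisomal genes 5 fell and 0 rose (median -0.34). Cat, the catalase that removes hydrogen peroxide, stood at 3451, 3213 and 2818 normalized counts with vector and 1127, 1135 and 1189.7 with tSema4B. Acaa1b, a thiolase, and Pex11a, which divides peroxisomes, fell, with log2 fold changes of -2.61 and -1.47. The difference between the organelles was not tested.

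Most genes of pyruvate entry and the TCA cycle were lower. Of 32 such genes 28 were lower by adjusted p, against 7.39% of all genes, and 9 of these were called (median -0.73). Pcx (chr19:4510472-4621752), the pyruvate carboxylase that refills the cycle, fell from 1032, 979.5 and 983 to 299, 309 and 335 normalized counts (3.17-fold, adjusted p = 2.39e-09). Cs, citrate synthase, went from 2431, 2332 and 2186 to 1145, 1077 and 1034. Idh3a, a subunit of the NAD-linked isocitrate dehydrogenase, fell by 1.27 on the log2 scale. Pdk1 and Pdk4, kinases that switch pyruvate dehydrogenase off, fell, with log2 fold changes of -1.56 and -1.33, so the group held lower enzymes and lower inhibitors. Pdp1, the phosphatase that switches the enzyme back on, was at 0.52, the only member higher by adjusted p.

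The respiratory chain was lower by small amounts in many genes. Of 76 nuclear genes of the complexes 70 had a negative log2 fold change, where 50.1% of all genes did and 49.9% were positive (median -0.43). By adjusted p 38 were lower, against 7.39% of all genes, and 2 were called lower, against 2.71%. The called ones were Cox7a1, given above, and Ndufa4l2 (-1.59), whose call was lost without vector library 1, 2 or 3 or tSema4B library 1 or 3 (log2 fold change -1.63 to -1.36, adjusted p 0.0514 to 0.0698) and with no filter and after thinning. Atp5b, the catalytic β subunit of ATP synthase and the most abundant, went from 10291, 9418 and 8994 to 5671, 5792 and 6196 normalized counts. All 8 mitochondrially encoded protein genes tested had negative log2 fold changes (median -0.89), and mt-Nd1, mt-Nd2 and mt-Co1 passed both thresholds, the last at -1.04 and not without vector library 3 or tSema4B library 2 (log2 fold change -0.94 to -0.93, adjusted p 2.58e-05 to 3.08e-05). mt-Nd1, a subunit of complex I, was at 31150.2, 31673 and 30554 against 14377, 14156 and 14004. Of the mitochondrial ribosomal RNAs, mt-Rnr1 at -1.05 was also called lower, and mt-Rnr2 at -0.94 was lower by adjusted p but under the fold threshold. The transfer RNAs mt-Tp and mt-Tq at 0.17 and 0.80 did not pass (adjusted p = 0.891 and 0.443). Of 76 mitochondrial ribosomal protein genes 14 were lower by adjusted p and 1, Mrps22, was called (-1.03), though not without tSema4B library 1 (log2 fold change -0.996, adjusted p 5.47e-05) and at a pseudocount of 10.

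Genes of sugar and amino acid use were lower in part. Slc2a4, the insulin-regulated glucose transporter GLUT4, fell from 185, 164 and 80.6 to 23.8, 26.3 and 16.4 normalized counts (6.45-fold, adjusted p = 3.50e-05). Tusc5, a partner of GLUT4 traffic in fat, fell by 1.57 on the log2 scale, and 3 of the 25 genes of glucose uptake and insulin signalling were called lower (median -0.14). Among 21 glycolysis genes 4 fell and 0 rose, where 2.71% and 1.11% of all genes did (median -0.38). Hexokinase 2 (Hk2) was at 61.9, 48.8 and 25.1 against 2.38, 18.6 and 6.85. Pfkfb1 and Pfkfb3, which make the activator of phosphofructokinase, fell, with log2 fold changes of -1.71 and -1.46. Ldha, the most abundant, was at -0.93. In branched-chain amino acid breakdown 7 of 24 genes were lower by adjusted p, with Pcca (-1.10) and Acat1 (-1.001) called near the fold threshold. The call of Pcca was lost without tSema4B library 1 or 3 (log2 fold change -0.96 to -0.88, adjusted p 0.0366 to 0.0423), and that of Acat1 without vector library 1 or tSema4B library 3 (log2 fold change -0.95 to -0.94, adjusted p 1.14e-06 to 2.42e-06) and at a pseudocount of 10 and under total scaling.

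Several secreted products of adipocytes fell. Of 15 adipokine genes 7 were called lower and 0 higher, where 2.71% and 1.11% of all genes were (median -1.10). Retn (chr8:3655770-3660110), which codes for resistin, was at 975, 895 and 852 normalized counts in the vector and 122, 49.5 and 103 in the tSema4B libraries (907 ± 62.6 against 91.2 ± 37.4, n = 3 libraries of each line, log2 fold change -3.39, adjusted p = 9.10e-11). Adipoq (chr16:23146536-23158028) went from 2789, 2212 and 2373 to the values given above, 5.64-fold lower. Rbp4, the carrier of retinol in blood, and Cfd, the complement protease adipsin, fell, with log2 fold changes of -2.93 and -2.10. Retn and Adipoq kept their libraries fully apart.

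Several receptors for hormones and metabolites fell too. Of 33 listed receptors 8 fell and 2 rose, where 2.71% and 1.11% of all genes did (median -0.041). Ffar4, a receptor for long-chain fatty acids, Hcar1, the lactate receptor, and Hcar2 fell, with log2 fold changes of -2.24, -2.55 and -2.13. Outside the list, Klb, the β-klotho co-receptor of FGF21, stood at 163, 145 and 145 normalized counts with vector and 11.9, 9.28 and 28.8 with tSema4B (9.06-fold lower, adjusted p = 1.03e-07). Adcyap1r1, the PACAP receptor, was at 184, 272 and 138 against 14.3, 7.73 and 19.2. On the other side Rarb, a retinoic acid receptor, rose from 20.6, 5.89 and 20.7 to 67.9, 77.3 and 60.2, though it shares 1793 exon bases with Top2b, and S1pr1, a sphingosine 1-phosphate receptor, rose by 1.44.

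The remaining genes of the 12 with the largest falls, at a mean of 50 or more normalized counts and without overlap, were A530016L24Rik (-3.81), B3galt2 (-5.27), Ankef1 (-2.87), Adh1 (-2.70) and Hp (-2.67), beside those given already. Hp is haptoglobin, the haemoglobin-binding acute-phase protein. Adh1, an alcohol and retinol dehydrogenase, was at 352, 287 and 247 normalized counts against 36.9, 43.3 and 53.4 and shares 136 exon bases with Gm16559. B3galt2 shares 679 exon bases with Cdc73. Orm1 and Lcn2, acute-phase proteins made by fat, fell, with log2 fold changes of -2.12 and -1.21, and Lcn2 lost its call without vector library 2 or tSema4B library 1 (log2 fold change -1.01 to -0.90, adjusted p 0.0584 to 0.0645). Of the 26 cytokine and acute-phase genes 4 fell and 2 rose, where 2.71% and 1.11% of all genes did (median 0.30). Il1rl1, the IL-33 receptor, rose from 14.1, 5.89 and 7.62 to 42.9, 57.2 and 32.9.

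**Figure D4:**
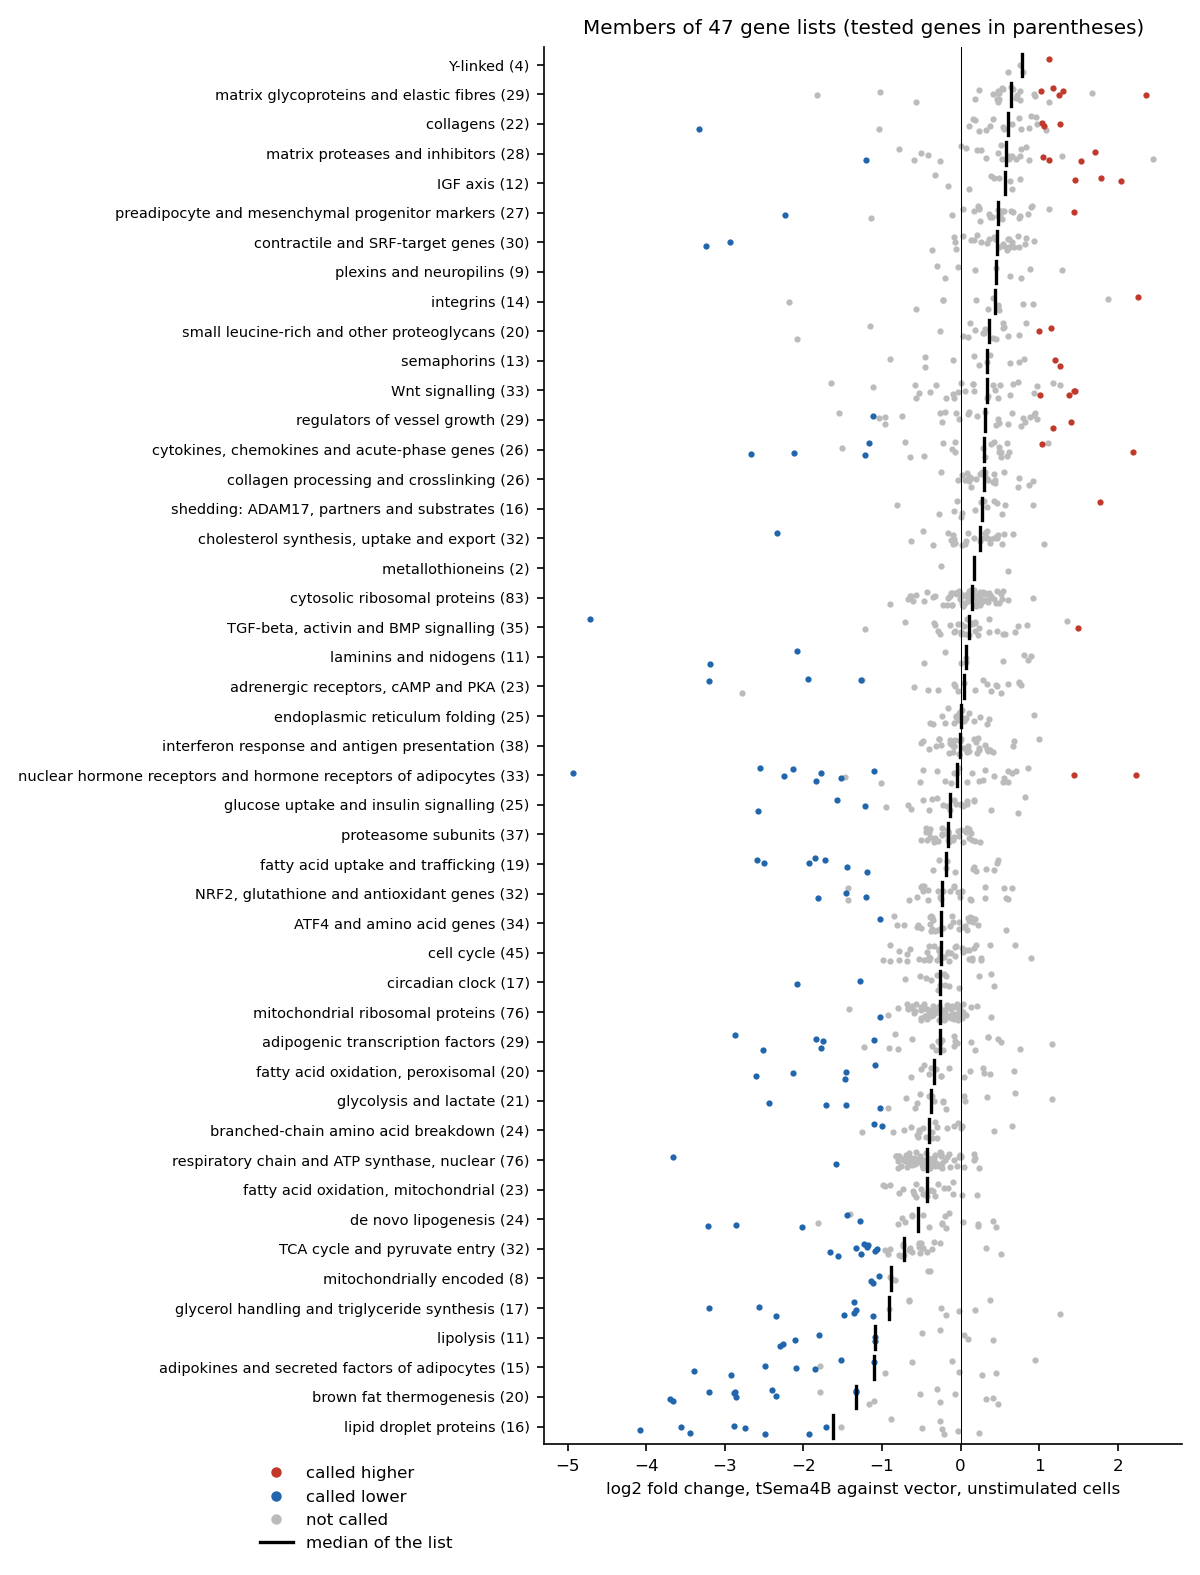
Log2 fold change of tSema4B over vector for the tested members of 47 gene lists. Points are genes and black bars list medians, which run from -1.62 for lipid droplet proteins to 0.63 for matrix glycoproteins and 0.78 for the Y-linked genes, beside -0.0025 over all genes.

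Many matrix genes were higher, most of them by less than 1 on the log2 scale. Of 29 matrix glycoproteins 5 rose and 0 fell with limma (1.11% of all genes rose), edgeR and DESeq2 each called 6 higher and 1 lower, and 18 were higher by adjusted p, where 5.64% of all genes were (median 0.63). Fbln7, a fibulin of the matrix, was at 15.2, 10.1 and 31.6 normalized counts with vector and 89.4, 86.6 and 97.2 with tSema4B (4.804-fold higher, adjusted p = 1.05e-04). Spon2, a secreted spondin, rose by 1.30 on the log2 scale. Tnc, tenascin C of remodelling tissue, stood at 182, 176 and 198 against 383, 464 and 301, just past the fold threshold. Fn1, fibronectin and the most abundant member, was at 0.75 (SE 0.075, adjusted p = 2.33e-07), under that threshold.

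Many collagens were higher too, and 1 fell. Of 22 tested 13 were higher by adjusted p, 3 of these were called and 1 fell (median 0.60). Col3a1 (chr1:45311538-45349706), the fibrillar collagen of loose tissue, rose from 6882, 7317 and 6515 to 13854, 15687 and 13844 normalized counts (6905 ± 402 against 14462 ± 1061, n = 3 libraries of each line, log2 fold change 1.07, adjusted p = 9.45e-10). Col1a1 at 1.03 lost its call without tSema4B library 2 (log2 fold change 0.97, adjusted p 9.81e-09) and Col4a6 at 1.27 did so without vector library 1 or tSema4B library 3 (log2 fold change 1.02 to 1.15, adjusted p 0.0654 to 0.0800). Col1a2 at 0.96 was under the fold threshold, and past it only without tSema4B library 1 (log2 fold change 1.01, adjusted p 9.50e-09). Col11a1 fell, from 26.1, 37.0 and 53.4 to 4.77, 1.55 and 2.74. Of the 26 enzymes that process and crosslink collagen none was called by limma, edgeR or DESeq2 (median 0.29). By adjusted p 9 were higher and at an unadjusted p under 0.05 13, where 5.64% and 12.3% of all genes were. Lox, lysyl oxidase and the most abundant of them, was at 0.11 (adjusted p = 0.404).

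Some proteoglycans were also higher, as were some genes of a list that holds matrix proteases and their inhibitors. Ogn, osteoglycin, rose by 1.15 on the log2 scale, and 9 of 20 proteoglycans were higher by adjusted p with 0 lower (median 0.36). Of 28 genes in the list of matrix proteases and inhibitors 4 rose and 1 fell, where 1.11% and 2.71% of all genes did (median 0.57). Among the risers, Plaur (1.53) lost its call without vector library 1 or 2 or tSema4B library 2 (log2 fold change 1.14 to 1.57, adjusted p 0.065 to 0.15) and with no filter. Adamts15, a protease of proteoglycans, went from 19.5, 53.0 and 31.6 to 97.7, 122 and 104 normalized counts (3.11-fold higher, adjusted p = 6.37e-04). Serpine2 and Timp1, at 1.12 and 1.05, are inhibitors, and Timp1 lost its call without vector library 2 or tSema4B library 1 or 2 (log2 fold change 0.95 to 0.99, adjusted p 1.19e-04 to 1.68e-04) and after thinning. Mmp11, a stromelysin, fell by 1.21. Laminins divided: Lamb3, a chain of the epithelial laminin, fell from 26.1, 22.7 and 15.2 to 2.38, 3.09 and 0, while the basement membrane genes Lama2, Lamb2 and Nid2 were at 0.81, 0.53 and 0.86, higher by adjusted p alone.

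Some markers of progenitor cells were higher, most of them by less than 1 on the log2 scale. Of 27 tested 12 were higher by adjusted p and 1 lower, against 5.64% and 7.39% of all genes. Only Fap, the fibroblast activation protease, was called higher (1.44), and only Eng, the TGF-β co-receptor endoglin, lower (-2.23). Of all genes 1.11% were called higher and 2.71% lower. The call of Eng was lost without vector library 2 or 3 or tSema4B library 2 (log2 fold change -2.18 to -1.87, adjusted p 0.0589 to 0.0766), with no filter and after thinning. The list median was 0.48. Itga8 (chr2:12106632-12301922), an integrin subunit of mesenchymal cells, stood at 34.8, 25.2 and 5.45 normalized counts with vector and 64.4, 128 and 76.7 with tSema4B (4.12-fold higher, adjusted p = 0.00360), and shares 372 exon bases with E030013I19Rik. Contractile genes behaved unevenly. Of 30 genes 12 were higher by adjusted p with none called (median 0.47; Fhl2 at 0.94 had the largest value), while the muscle actin Acta1 fell from 9.77, 16.8 and 24.0 to 4.77, 0 and 0 normalized counts. Actg2, a smooth muscle actin, was at 16.3, 3.36 and 14.2 against 0, 1.55 and 0 and lost its call without vector library 1 or 3 or tSema4B library 1 or 3 (log2 fold change -2.71 to -2.57, adjusted p 0.0601 to 0.136) and at a pseudocount of 10.

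The IGF axis held 3 rises. Of 12 members tested 3 rose and 0 fell, where 1.11% and 2.71% of all genes did, and 6 were higher by adjusted p (median 0.56). Igfbp4 (chr11:99041244-99054392), a secreted binding protein that holds IGFs away from their receptor, was at 222, 213 and 159 normalized counts with vector and 825, 811 and 789.9 with tSema4B (198 ± 33.8 against 808 ± 17.5, n = 3 libraries of each line, 4.09-fold higher, log2 fold change 2.04, SE 0.13, adjusted p = 2.12e-10). Igf1 (chr10:87858265-87937042), the growth factor itself, rose from 224, 186 and 176 to 741, 583 and 695 (3.45-fold, adjusted p = 4.93e-08). Igfbp5 rose by 1.45 on the log2 scale. The libraries of the lines did not overlap in Igfbp4 or Igf1. Igf1r, the receptor, was at 0.65, and Igfbp3, the most abundant member, at 0.43 (adjusted p = 0.0650).

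A few secreted Wnt genes rose. Of 33 Wnt genes 4 rose and 0 fell, where 1.11% and 2.71% of all genes did, and the median was 0.33. The risers were the ligand Wnt2 (32.6, 14.3 and 20.7 normalized counts with vector against 62.0, 60.3 and 49.3 with tSema4B) and Sfrp1, Sfrp2 and Sfrp4 (1.45, 1.01 and 1.44), which are secreted antagonists that bind Wnt proteins. The call of Sfrp2 was lost without vector library 2 or 3 or tSema4B library 2 or 3 (log2 fold change 0.91 to 0.99, adjusted p 5.10e-04 to 9.94e-04), at a pseudocount of 10, with edgeR and after thinning. In the TGF-β list 1 of 35 genes rose and 1 fell (median 0.10), where 1.11% and 2.71% of all genes did. Tgfb2 (chr1:186622792-186705989) rose from 71.7, 80.7 and 123 to 256, 255 and 246 (2.75-fold, adjusted p = 1.30e-05), sharing 124 exon bases with Gm29491. Gdf10, a BMP-like ligand made by progenitor cells, fell from 72.8, 79.0 and 61.0 to 1.19, 0 and 8.21.

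Among 29 regulators of vessel growth 2 rose and 1 fell (median 0.31), where 1.11% and 2.71% of all genes did. Vegfc, the lymphatic growth factor, rose from 19.5, 20.2 and 22.9 to 59.6, 71.2 and 42.4 normalized counts. Slit2, a guidance ligand, rose by 1.17, and Angpt1, the ligand of the endothelial receptor Tie2, fell by 1.11, with a call lost without vector library 3 (log2 fold change -0.99, adjusted p 0.0273). Of 16 genes of ADAM17, its partners and its substrates 1 was called, Hbegf, a shed EGF receptor ligand (1.77), and it was lost without vector library 3 or tSema4B library 1 or 2 (log2 fold change 1.32 to 1.59, adjusted p 0.0547 to 0.0754). Adam17 was at 547, 709.6 and 606 against 595, 712 and 561 (log2 fold change 0.0048, SE 0.12, adjusted p = 0.984). Its partners Rhbdf1 and Rhbdf2 at 0.42 and -0.085 did not pass (adjusted p = 0.311 and 0.925).

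Semaphorins and their receptors bear on the construct itself. Of 13 semaphorins tested 2 rose, Sema4b and Sema3a, and 0 fell. Sema3a (chr5:13125414-13602565), a secreted ligand of neuropilin 1, was at 2993, 2768 and 2898 normalized counts with vector and 6238, 7561 and 6207 with tSema4B (2.31-fold higher, adjusted p = 5.22e-09), with no overlap. Of the 9 plexins and neuropilins limma called none and edgeR none, and DESeq2 called 1 higher (median 0.44). By adjusted p 2 were higher and at an unadjusted p under 0.05 4, where 5.64% and 12.3% of all genes were. Plxnb1, a receptor of class 4 semaphorins, stood at 11.9, 24.4 and 10.9 against 40.5, 29.4 and 43.8, without overlap, a log2 fold change of 1.29 (SE 0.43) with an adjusted p = 0.0525. It passed under total scaling, with DESeq2 and without vector library 2, and the adjusted p ran from 0.0284 to 0.165 over the alternatives. Plxnb2, its relative, was at 0.44 (adjusted p = 0.0134) and Nrp1, the co-receptor, at 0.89 (adjusted p = 9.52e-06), higher but under the fold threshold, and Nrp2 at -0.20 did not pass (adjusted p = 0.432). Per kilobase of exon, levels in the tSema4B line were 106 normalized counts for Nrp1, 78.7 for Plxnb2, 20.7 for Nrp2 and 3.95 for Plxnb1.

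At a mean of 50 or more normalized counts and without overlap, the other genes of the 12 with the largest rises were Gabra3, a GABA receptor subunit (3.11), Rgs17, a brake on G protein signals (2.03), Ccbe1, which helps process Vegfc (2.00), the palmitoyltransferase Zdhhc15 (1.84), Crim1, a membrane protein that binds BMPs (1.78), the orphan receptor Gpr176 (1.75) and Gm4468 (1.75). Ccbe1 was at 24.98, 37.0 and 50.1 normalized counts with vector and 129, 141 and 175 with tSema4B, and Crim1 at 23.9, 16.0 and 33.8 against 82.2, 95.9 and 72.6. These libraries did not overlap in either gene. Ccbe1 shares 320 exon bases with Gm15958 and Crim1 123 exon bases with Fez2. The call of Zdhhc15 was lost without vector library 3 (log2 fold change 1.45, adjusted p 0.0563), that of Gpr176 without vector library 1 or 2 or tSema4B library 3 (log2 fold change 1.46 to 1.59, adjusted p 0.0853 to 0.0987) and with no filter, and that of Gm4468 without vector library 2 or tSema4B library 3 (log2 fold change 1.30 to 1.38, adjusted p 0.0707 to 0.0723).

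How reads of overlapping exons were assigned to genes is not given in the sources used here. Of other genes named, Lipe shares 918 exon bases with 4732471J01Rik, Angpt1 737 exon bases with Gm17473, Lama2 631 exon bases with Gm48084, Bnip3 504 exon bases with Gm45507, Nid2 437 exon bases with Rtraf, Ebf2 424 exon bases with Gm10860, Sfrp2 347 exon bases with Gm26771, Adam17 311 exon bases with Iah1, Fn1 292 exon bases with Apol7d, Plxnb1 257 exon bases with Gm7628 and Mlxipl 235 exon bases with Gm43500.

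Several groups held few calls or none. At an unadjusted p under 0.05, the measure used for them here, 12.3% of all genes were higher and 13.9% lower. Among 38 interferon and antigen presentation genes none was called by limma, edgeR or DESeq2, and 2 were higher and 1 lower at that p (median -0.005). The 25 genes of endoplasmic reticulum folding gave 0 calls with each tool, 1 and 2 at that unadjusted p, higher and lower, and a median of 0.0054. Cytosolic ribosomal proteins, 83 genes with 0 calls by each tool, were higher in 17 and lower in 4 at that p (median 0.14), and the 37 proteasome genes, 0 called as well, were higher in 0 and lower in 12 (median -0.16). Of 32 cholesterol genes 10 were higher and 3 lower at that p, 5 and 3 by adjusted p (median 0.25), and the 1 that was called, the exporter Abcg1, fell (59.7, 53.8 and 37.0 normalized counts against 9.53, 7.73 and 9.58).

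Some cell cycle and stress genes were lower. Of 45 cell cycle genes 15 were lower and 2 higher by adjusted p, against 7.39% and 5.64% of all genes, and limma called none, edgeR 1 and DESeq2 1 lower (20 lower and 3 higher at an unadjusted p under 0.05, median -0.25). The cyclin genes Ccne1, Ccne2 and Ccnb1 stood at -0.99, -0.89 and -0.90, and the inhibitors Cdkn2a and Cdkn2b at 0.70 and 0.89, while the inhibitor Cdkn1a was at -0.78. Of 34 ATF4 and amino acid genes 8 were lower by adjusted p (median -0.25), against 7.39% of all genes. The glutamine transporter Slc1a5 was the 1 called lower (-1.02), where 2.71% of all genes were. Its call was lost without vector library 2 or tSema4B library 1 or 3 (log2 fold change -0.999 to -0.97, adjusted p 1.24e-05 to 2.47e-05) and under total scaling. In the NRF2 and antioxidant list 3 of 32 fell, where 2.71% of all genes did. They were the microsomal transferases Mgst1 and Mgst3 (-1.20 and -1.82) and catalase. Of 17 clock genes 2 were called lower, against the same share of all genes. Per1 (-1.28), 1 of the 2, was not called without vector library 1 or 2 or tSema4B library 3 (log2 fold change -1.26 to -0.78, adjusted p 0.0547 to 0.0840) and at a pseudocount of 10.

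The called genes were then followed in the NE-treated libraries of the same lines, where tSema4B was again set against vector. Of the 133 genes higher without NE 74 were higher by adjusted p after NE, as were 9.79% of all genes, with a median log2 fold change of 1.29 before and 0.92 after. Of the 325 lower genes 225 were lower by adjusted p, as were 11.2% of all genes, with medians of -1.75 and -1.33. The called genes were chosen on the unstimulated libraries, so the medians before and after NE are given with no test. In the test of the difference itself, the interaction of construct and NE, 3 of the 458 called genes passed an adjusted p of 0.05, the same number as among all 11998 genes (0.025%).

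All 3 genes had a smaller difference after NE. Lpl was 7222 ± 639 normalized counts with vector and 1902 ± 152 with tSema4B before NE, and 8355 ± 390.3 against 3887 ± 343 after it, so that the log2 fold change went from -1.92 to -1.11 (interaction 0.82, SE 0.11, adjusted p = 0.00399). Bnip3, a mitophagy receptor induced by hypoxia, went from -1.64 to -0.48 (interaction 1.16, adjusted p = 0.0371), and Idh1, the cytosolic isocitrate dehydrogenase, from -1.06 to -0.32 (interaction 0.74, adjusted p = 0.0216). Lpl passed without each of the 6 unstimulated libraries in turn, Idh1 and Bnip3 did not, and none of the 3 passed when no filter on low values was used. The unstimulated call of Idh1 was lost without vector library 1 (log2 fold change -0.98, adjusted p 2.71e-07).

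**Figure D5:**
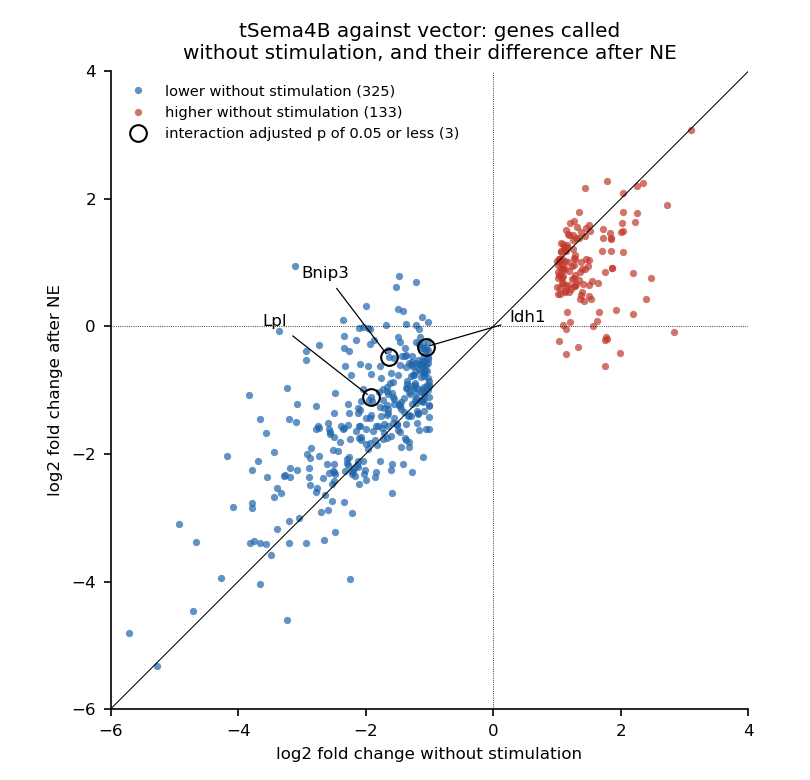
Log2 fold change of tSema4B over vector without NE against the same after NE for the 458 called genes, with the 3 genes past the interaction test circled and a diagonal of equal values. The medians are 1.29 and 0.92 for higher genes and -1.75 and -1.33 for lower genes.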

How the data were processed

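RNA was made into SMART-Seq2 cDNA and Nextera XT libraries and read single-end on a NextSeq2000. According to the methods and the submitters' processing notes, the authors screened reads with FastQ Screen, aligned them with STAR 2.7.9a to mm10 (GRCm38.p4), took gene counts from htseq-count and normalized them with DESeq2. Strand setting, treatment of multi-mapping reads and annotation are not given in the sources used here. The deposited values are a signal, gene counts divided by size factors. They came out as whole reads for 100% of values within 0.01, and count tests on those reads called 133 higher and 318 lower genes (edgeR 4.0.16) or 151 and 320 (DESeq2 1.42.0).

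The test was limma 3.58.1 (R 4.3.3) on log2(normalized count + 1) of the 11998 genes at 10 or more in at least 3 libraries, fitted on all 12 libraries in 4 groups, with Benjamini-Hochberg adjusted p-values over all genes and calls at 0.05 and a log2 fold change of 1. The fit was tested on simulated data. An exact permutation test of 3 against 3 libraries cannot go below p = 0.1. Errors are SDs over 3 libraries, and bounds cover counting error only. Of the symbols, 46269 matched 1 gene of GENCODE M21 (GRCm38), 11637 of the tested ones, and 27 that a spreadsheet had turned into dates name no gene. Where exons overlap, the counts depend on how such reads were assigned, which is not given. 0 columns were left unused.

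The 47 gene lists, 8 marker lists and the genes named were chosen with earlier results of these data known. The rule named 174 genes: Sema4b, its receptors and ADAM17 partners, the 12 largest changes in each direction without overlap at a mean of 50 or more, up to 4 called members, the most abundant member and any member called against the median of each list, the genes past the interaction test, and those the study names. Others given as list members were chosen after their values were seen. Some members counted in the lists are not reported here by name. Alternatives were 11 other settings and the removal of each of 6 libraries. Replicate numbers did not pair libraries across groups.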

Additional observations from a re-analysis of the deposited data

Results flagged for a closer look

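For 3 genes the difference between tSema4B and vector was itself different after NE, by the interaction test in limma. For Lpl the interaction was 0.817 on the log2 scale (SE 0.11, adjusted p = 0.00399), with NE-treated values of 8274, 8780 and 8012 normalized counts with vector and 3846.5, 4248 and 3566 with tSema4B. Without each of the 6 unstimulated libraries in turn its adjusted p ran from 0.000703 to 0.0387. For Idh1 it was 0.738 (adjusted p = 0.0216), with 2819, 2690 and 2797 against 2228, 2243 and 2179 after NE. It did not pass without vector library 1 (0.108), vector library 2 (0.117) or tSema4B library 3 (0.0620). For Bnip3 it was 1.16 (adjusted p = 0.0371), with 675, 631 and 714 against 490.1, 481 and 474 after NE. It passed without tSema4B library 2 (0.00488) and did not pass without any other of these 6. The NE-treated libraries were not left out. With no filter on low values the adjusted p of the 3 genes was 0.139 to 0.194. The number of cells and the share of adipocyte RNA before and after NE were not measured here.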

How the results depend on the processing

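Each setting kept the imbalance toward lower genes. Against 133 higher and 325 lower genes, edgeR gave 133 and 318, DESeq2 151 and 320, total scaling 144 and 307, nuclear scaling 133 and 325, a pseudocount of 0.5 136 and 322, a pseudocount of 10 99 and 275, no filter 110 and 342, a filter at 50 98 and 226, the 6 unstimulated libraries alone 131 and 309, and thinning to equal depth 140 and 302. The adjusted p alone gave 677 and 887. Leaving out 1 library gave 112 to 156 higher and 253 to 337 lower genes. The share of higher among the called genes ran from 24.3% to 33.8%, with 29.0% as reported, and no scaling moved the median of all genes by more than 0.025. With the replicate block there were 128 higher and 323 lower genes. The 18 same-numbered pairs of libraries had correlations of -0.047 to 0.028, 0 of them over 0.1, so no pairing by number was seen. Counting noise lowers such correlations, so this check cannot exclude a weak pairing. The count of called genes with an interaction, 3 as reported, was 0 with no filter (limma, lowest adjusted p 0.139), 15 with DESeq2, and 1 to 6 without 1 library.

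Of the 128 named genes that were called 96 kept the call under every alternative and 32 lost it under at least 1, and none of the 128 changed sign. Among named genes that were not called, Adam17 was at -0.011 with edgeR, -0.00030 with DESeq2 and -0.039 after thinning, and left-out libraries gave -0.10 to 0.11 for Adam17, -0.12 to 0.016 for Egfl7, -0.12 to 0.13 for Gpat4, -0.19 to 0.0053 for Mrpl28, -0.0049 to 0.13 for Nid1, -0.31 to 0.13 for Rhbdf2 and -0.054 to 0.11 for Slc38a2. The median of 6 of the lists changed sign under at least 1 alternative. The causes of these changes were not tested. The tSema4B libraries are the shallower ones, which limits the 8 lower genes without a read there to bounds on the fold and leaves 33 more on at most 3 reads in each.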

Other observations

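Some called genes outside the lists, chosen after their values were seen, are given here one by one. Apoc1, an apolipoprotein of lipoprotein particles, was at 49.95, 22.7 and 40.3 normalized counts with vector and 1.19, 0 and 8.21 with tSema4B (log2 fold change -3.76, limma adjusted p = 2.20e-04), and Apoc3, another, had no read with tSema4B, at least 2.57-fold lower. Agt, angiotensinogen, went from 551, 615 and 478 to 122, 95.9 and 144 (adjusted p = 1.37e-09), and the vasopressin receptor gene Avpr1a, with no read in the tSema4B libraries, was at least 5.73-fold lower. The adenosine receptor gene Adora1 was at -4.26 and shares 1162 exon bases with Mybph, and Adora2b was at 1.83 (adjusted p = 0.00565). C1s1, a complement protease of the classical pathway, rose by 1.27, beside the fall of adipsin. Cyp7b1, an oxysterol hydroxylase, rose by 2.04 (adjusted p = 6.37e-05), and Acvr1c, the activin receptor ALK7 of adipocytes, fell by 3.04.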
